A study of Homo sapiens with 2 samples.

Results

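Immediate early genes are switched on within minutes of a growth or stress signal, from factors that are already in the cell. The genes described here are EGR1, the AP-1 subunit genes FOS, FOSL1, FOSL2, JUN, JUNB, JUND and ATF3, and the immediate early response genes IER2 and IER3. They were taken by symbol from the deposited expression files, where 10 of the 10 were listed among 12014 genes. All 10 also had a mean of at least 1 FPKM, the filter that kept 10708 genes. FPKM counts sequenced fragments relative to transcript length and to the mapped total of the library, so levels can be set side by side between genes. Gene positions are those in the files, whose identifiers have the form of GENCODE genes carried over to GRCh37, and every other build is named where it is used.

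The study sequenced poly(A) RNA of ACHN cells, an established human renal cell carcinoma line, in 2 strand-specific libraries. In the shKIAA1429 library the cells carried a lentiviral short hairpin RNA against KIAA1429 (VIRMA), a subunit of the complex that writes m6A on RNA, and in the shNC library they carried a control hairpin. The paper describes stable ACHN lines selected with puromycin, without stating that the libraries came from them. No acute serum or growth factor stimulus is named for the RNA. The sample labels call the shKIAA1429 library a KIAA1429 knockout, the paper describes a knockdown, and which of its 2 hairpins was sequenced is not named. With 1 library per group, no difference given here has a replicate check, no p-value or error could be computed, and sample-to-sample spread is unknown. In bulk RNA, a gene used by fewer cells and a lower level in each cell cannot be told apart.

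For each gene the change is a log2 ratio, shKIAA1429 over shNC, taken after 1 was added to both FPKM values, so that changes of weakly expressed genes come out too small. KIAA1429 itself was at 3.92 FPKM with shNC and 3.22 FPKM with shKIAA1429, or 82.1% of the control level. ACTB and GAPDH, often used as references, were at 84.1% and 80.7% of theirs. KIAA1429 mRNA thus lay between these references, so its level in these files does not by itself bear out the label of the shKIAA1429 library. Every direction given here rests on that label. The paper reports, from RT-qPCR and western blot, that its hairpins lowered KIAA1429 mRNA and protein in ACHN cells. Whether the sequenced RNA came from those same cultures is not stated. The 8 renal and renal carcinoma markers were all listed, with PAX8 at 64.7 FPKM with shNC and 104 FPKM with shKIAA1429, and summed to 761 and 686 FPKM. VIM alone gave 368 and 228 FPKM of these sums, and 4 of the 8 markers were higher and 4 lower with shKIAA1429. Of 8 markers of blood, endothelial, stromal and liver cells, 6 were not listed, among them PTPRC, PECAM1 and ALB, and CD68 and COL1A1 summed to 4.95 and 3.68 FPKM, shNC first. Mitochondrial genes took 42.2% of the listed FPKM with shNC and 34.6% with shKIAA1429. The listed FPKM summed to 283046 with shNC and 249409 with shKIAA1429, and to 163587 and 163171 without the mitochondrial genes. Multiplying the shKIAA1429 values up to the shNC sum, called equal FPKM sums below and chosen after seeing the data, moved the median log2 change of all kept genes by 0.15, from 0.06 to 0.21. The sums without mitochondrial genes were already close, so this scaling puts the shKIAA1429 sum of the other genes above their shNC sum.

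EGR1 encodes a zinc finger factor that binds GC-rich sites and is held in check by the NAB corepressors. The AP-1 factor is a pair of leucine zipper proteins. FOS proteins must pair with a JUN protein, JUN proteins can also pair with each other, and ATF3 pairs with JUN proteins or with itself. Growth factor receptors drive these genes through the ERK cascade, which activates ELK factors at SRF binding sites (CArG boxes), and through CREB and ATF factors at cyclic AMP response elements (CREs). Because the mRNAs and most of the proteins are short-lived, their levels follow the current signal. FOSL1, a late and ERK-dependent FOS family member, is known for its high level in invasive carcinoma cells.

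The upstream sequences of the 3 members with the lowest log2 changes, EGR1, FOS and JUND, are given because CArG boxes and CREs are the elements through which EGR1 and FOS are known to be induced. RefSeq start site windows were found for 8 of the 10 members, and not for FOSL1 and IER3. The windows hold the 250 bases before the RefSeq start site in GRCh38.p14, and the sequences run 5′ to 3′ on the strand of the gene. For FOS the last 54 bases, which lie inside the gene as GENCODE 29 draws it, are not printed. Capitals mark CArG boxes and the CRE core TGACG on either strand (CGTCA when it lies on the other strand). The printed stretches are chr5:138465229-138465478 on the plus strand for EGR1, chr14:75278578-75278773 on the plus strand for FOS, and chr19:18281623-18281872 on the minus strand for JUND.
EGR1: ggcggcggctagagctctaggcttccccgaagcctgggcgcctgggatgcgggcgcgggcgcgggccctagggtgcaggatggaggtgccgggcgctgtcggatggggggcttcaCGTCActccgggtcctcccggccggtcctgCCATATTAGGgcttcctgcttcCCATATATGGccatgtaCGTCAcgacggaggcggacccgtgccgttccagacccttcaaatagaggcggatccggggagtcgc
FOS: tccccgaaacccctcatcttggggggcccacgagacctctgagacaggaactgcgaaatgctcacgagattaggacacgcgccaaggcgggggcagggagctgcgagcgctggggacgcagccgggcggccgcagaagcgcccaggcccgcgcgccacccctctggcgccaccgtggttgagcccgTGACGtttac
JUND: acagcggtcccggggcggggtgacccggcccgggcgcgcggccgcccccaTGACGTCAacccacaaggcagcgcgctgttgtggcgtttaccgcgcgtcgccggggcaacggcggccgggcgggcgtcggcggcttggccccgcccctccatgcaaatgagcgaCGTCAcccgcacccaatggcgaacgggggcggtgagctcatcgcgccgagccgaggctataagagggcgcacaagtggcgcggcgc

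EGR1 held 2 CArG boxes, CCATATTAGG from 105 to 96 bases and CCATATATGG from 83 to 74 bases before the start. A CArG box was present in 1.16% of all 35116 windows of this length, and EGR1 was the 1 member of the 8 with a match. Boxes further from a start than its window reaches were not searched for. The lack of a match in the FOS window thus does not show that FOS has no CArG box. The EGR1 window also held GCGCGGGCG, a match to the EGR motif GCGNGGGCG, which was found in 8.41% of all windows and in 1 of the 8 members. The CRE core TGACG was found in 7 of the 8 members, all but ATF3, against 21.2% of all windows. The windows of FOSL2 and JUN lie wholly inside the gene as GENCODE draws it, and so do their matches. JUND held the whole palindrome TGACGTCA, which contains the core on both strands, from 200 to 193 bases before the start, and 1.65% of all windows did. TATAAA was found in 10.7% of all windows and in 3 of the 8 members, from 33 to 28 bases before the start of FOS, from 31 to 26 bases before that of JUNB, and from 230 to 225 bases before 1 of the 2 ATF3 starts. The window of that ATF3 start also lies wholly inside its gene. The AP-1 motif TGANTCA was found in 0 of the 8 members and in 6.57% of all windows. Longer forms were not searched for. The windows of JUN and of the other ATF3 start hold TGACATCA, which is longer and does not match this motif. These matches are descriptions of letters in 1 window per start site, searched on both strands, and none was tested for binding in these cells.

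EGR1 (ENSG00000120738.7_2, chromosome 5 from 137801179 to 137805004, plus strand) had the largest log2 change of the 10 genes in either direction and was the only 1 of them past the log2 limit of 1.5 that the study's methods name. It stood at 52.1 FPKM with shNC and at 15.8 FPKM with shKIAA1429, so the shKIAA1429 library held 30.4% of the control level (log2 change -1.66). Over all 10708 kept genes, 0.252% were lower and 0.392% were higher past this limit, while of the members 1 was lower and 0 were higher. EGR1 went from rank 497 to rank 2144 by level among the 12014 listed genes. Of the 1534 genes with a mean level within 2 times that of EGR1, itself included, 2 had a lower log2 change. With equal FPKM sums the change of EGR1 was -1.49, just short of the limit, so its call depends on the scaling, and then 0 members were past it. After rescaling to a sum of 1000000 without mitochondrial genes, which makes the pseudocount small against the values, the change of EGR1 was -1.70. Centred on the median of all kept genes it was -1.72.

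**Figure D1:**
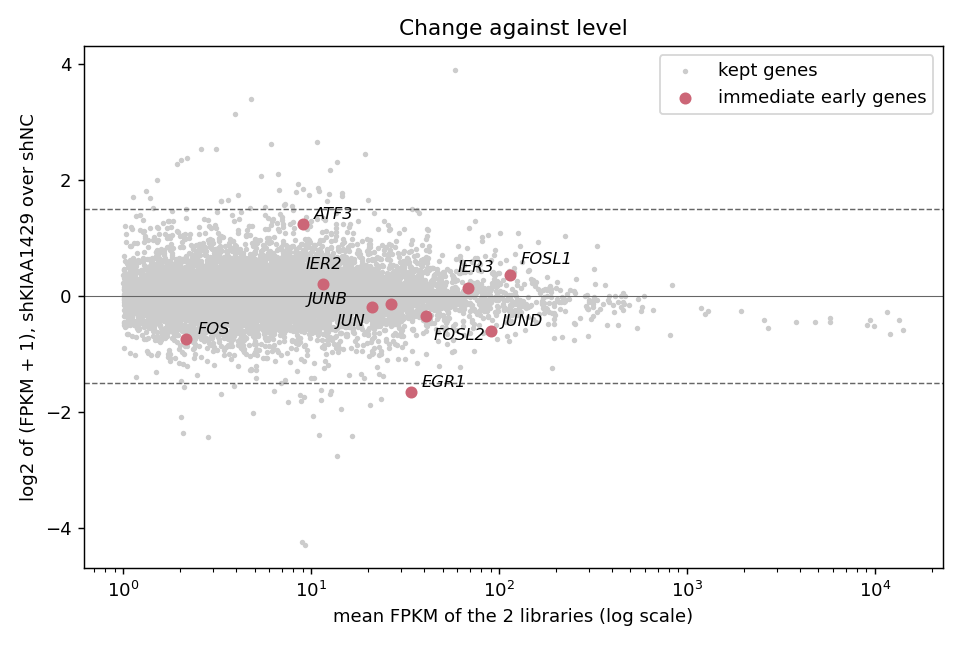
Log2 change of each kept gene (shKIAA1429 over shNC, vertical axis) against its mean FPKM in the 2 libraries (horizontal axis, log scale), with the 10 immediate early genes in red and dashed lines at 1.5 and -1.5. EGR1, at -1.66, lies below the lower line, ATF3, at 1.24, lies under the upper line, and the other 8 lie between -0.74 and 0.37.

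By the measure of the smallest difference in log2 change among genes of similar level, the 5 genes most like EGR1 over the 2 libraries were DUSP3, NFIX, AKAP2, SNRPA and NABP2. DUSP3, a dual specificity phosphatase gene, was at 36.8 FPKM with shNC and had a log2 change of -1.78. NFIX, which encodes an NFI transcription factor, had a log2 change of -1.88, and those of the other 3 were between -1.41 and -1.35. This likeness rests on 2 libraries and was chosen by the change itself.

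The other EGR genes, EGR2, EGR3 and EGR4, were not listed, so EGR1 was the only family member with a value. Its corepressor genes stood at close levels in the libraries. NAB1 was at 5.91 FPKM with shNC and 6.36 FPKM with shKIAA1429, and NAB2, itself a known EGR1 target, was at 9.82 and 8.92 FPKM. The ratio of EGR1 to the sum of NAB1 and NAB2, which does not depend on the scale of the library, was 3.32 with shNC and 1.04 with shKIAA1429.

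FOS (ENSG00000170345.9_3, chromosome 14 from 75745477 to 75748933, plus strand), the founding member of its family, was the least abundant of the 10 genes in both libraries. The shNC library held 2.97 FPKM and the shKIAA1429 library 1.37 FPKM, or 46.2% of the former, and the log2 change was -0.74. With a pseudocount of 0.1 in place of 1 the change was -1.06. This gene lay at rank 7847 by level with shNC and at rank 10107 with shKIAA1429. The files hold no fragment counts, so the counting error of such low values is unknown.

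FOSL1 (FRA-1, ENSG00000175592.8_3, chromosome 11 from 65659520 to 65668044, minus strand) was at rank 223 by level among all listed genes with shNC and at rank 158 with shKIAA1429. Its 99.5 FPKM with shNC compared with 129 FPKM with shKIAA1429, a log2 change of 0.37. FOSL2 (FRA-2, ENSG00000075426.11_3, chromosome 2 from 28615315 to 28640179, plus strand), its close relative, was at 45.9 FPKM with shNC and 35.9 FPKM with shKIAA1429, a log2 change of -0.35 in the other direction. FOSB, a FOS relative, was below the filter, at 0.443 and 1.18 FPKM.

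JUND (ENSG00000130522.5_3, chromosome 19 from 18390570 to 18392432, minus strand), the JUN family member that is expressed in resting cells, was the most abundant of the 10 genes with shNC. It was at 110 FPKM with shNC and 71.9 FPKM with shKIAA1429, and thus at 65.4% of the shNC value, for a log2 change of -0.60. Among the 472 genes within 2 times its mean level, itself included, 19 had a lower change. JUN (ENSG00000177606.6_2, chromosome 1 from 59246460 to 59249999, minus strand), the founding JUN gene, was at 28.0 FPKM with shNC and 25.2 FPKM with shKIAA1429. JUNB (ENSG00000171223.5_2, chromosome 19 from 12902310 to 12904129, plus strand), which can oppose JUN at some targets, was at 22.7 FPKM with shNC and 19.7 FPKM with shKIAA1429. The log2 changes of JUN and JUNB, -0.15 and -0.19, were 0.03 and -0.02 with equal FPKM sums, so that of JUN turned and that of JUNB came near 0.

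**Figure D2:**
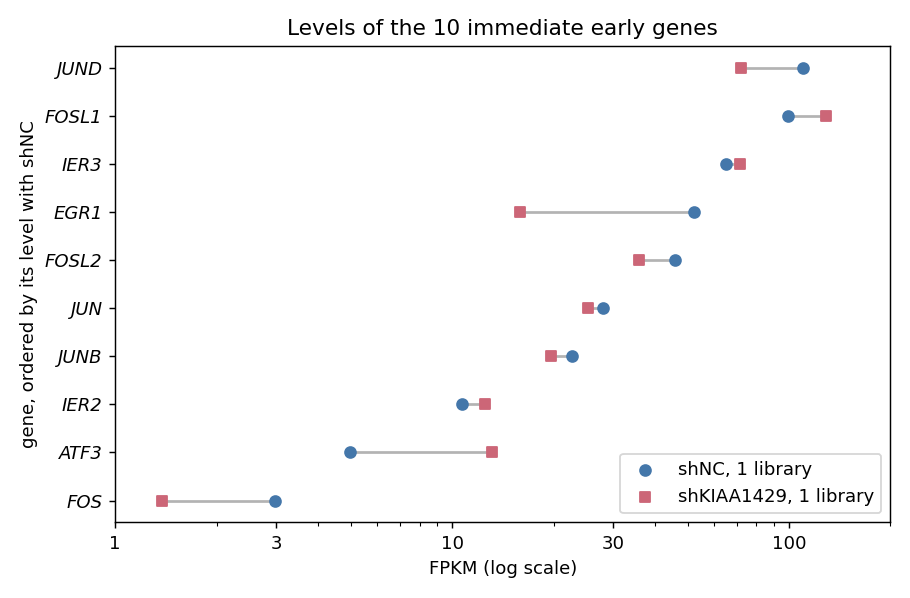
Level of each of the 10 genes in FPKM (horizontal axis, log scale) in the shNC library (circle) and the shKIAA1429 library (square), 1 library each, joined by a line. The longest lines are those of EGR1 (52.1 to 15.8 FPKM), ATF3 (4.98 to 13.1 FPKM) and FOS (2.97 to 1.37 FPKM), and JUN, JUNB, IER2 and IER3 have symbols close together.

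Shares within a family do not depend on how the libraries were scaled. FOSL1 made up 66.9% of the summed FPKM of the 4 FOS family genes with shNC and 77.0% with shKIAA1429. FOSL2 made up 30.8% and 21.5%, and FOS 2.00% and 0.822%. Within the 3 JUN family genes, JUND made up 68.4% with shNC and 61.6% with shKIAA1429, JUN 17.5% and 21.6%, and JUNB 14.1% and 16.8%. The FOS family summed to 149 FPKM with shNC and 167 FPKM with shKIAA1429, whereas the JUN family summed to 161 and 117 FPKM. The ratio of the FOS family sum to the JUN family sum was therefore 0.926 with shNC and 1.43 with shKIAA1429. Nearly all of the FOS family RNA was from FOSL1 and FOSL2 in both libraries.

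**Figure D3:**
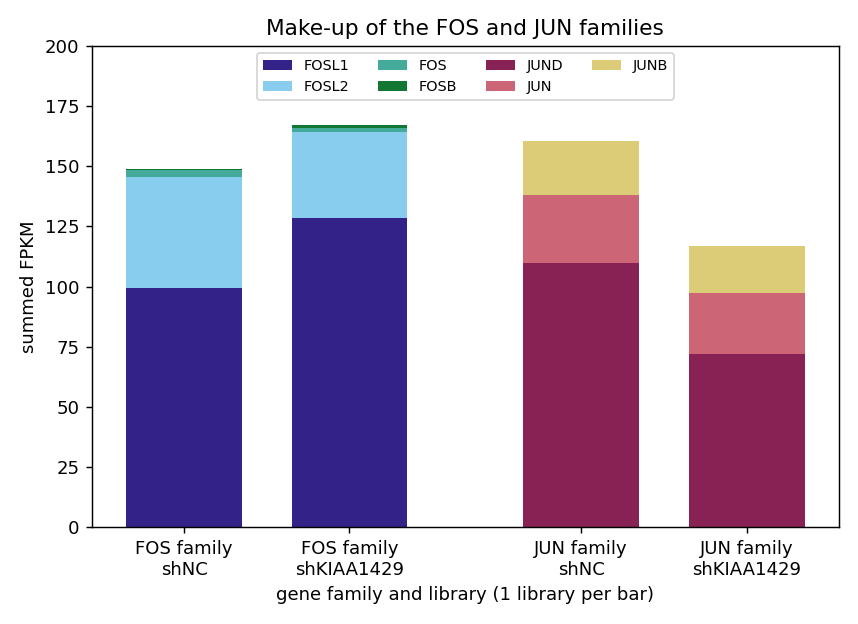
Summed FPKM of the FOS family genes and of the JUN family genes in each library (1 library per bar), divided by gene. The FOS family bars reach 149 and 167 FPKM and consist mostly of FOSL1, and the JUN family bars reach 161 and 117 FPKM and consist mostly of JUND.

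ATF3 (ENSG00000162772.16_3, chromosome 1 from 212738676 to 212794119, plus strand), a stress-induced AP-1 partner that can repress its targets, had the highest log2 change of the 10 genes. From 4.98 FPKM with shNC it stood at 13.1 FPKM with shKIAA1429, a 2.63-fold higher level with a log2 change of 1.24. Of the 4621 genes within 2 times its mean level, itself included, 44 had a higher change. At a limit of 1 in place of 1.5, ATF3 was the 1 member counted as higher and EGR1 the 1 counted as lower, while 1.62% of all kept genes were higher and 0.897% were lower. With equal FPKM sums ATF3 was at 1.41. Rescaling each library to a sum of 1000000, which also makes the pseudocount small against the values, gave 1.52. Among all kept genes 42 were higher and 27 lower past 1.5, against 60 and 22 with equal FPKM sums and 135 and 32 at a sum of 1000000, so that higher genes were 60.9%, 73.2% and 80.8% of those past the limit. The ratio of EGR1 to ATF3 was 10.5 with shNC and 1.21 with shKIAA1429. ATF4, which is known to drive ATF3 in the integrated stress response, was at 181 FPKM with shNC and 146 FPKM with shKIAA1429. These are mRNA levels, which do not give the amount of ATF4 protein, and a link of ATF3 to this response was not tested.

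The IER genes differed little. IER2 (ENSG00000160888.6_2, chromosome 19 from 13261229 to 13265722, plus strand), which encodes a nuclear regulator of transcription, was at 10.7 FPKM with shNC and 12.5 FPKM with shKIAA1429, a log2 change of 0.21. IER3 (ENSG00000137331.11_2, chromosome 6 from 30710976 to 30712331, minus strand), which encodes a membrane protein tied to cell survival, was at 65.0 FPKM with shNC and 71.6 FPKM with shKIAA1429, a log2 change of 0.14. Both changes were positive in the 5 other settings tried for single genes, and they were no larger than the 0.22 that was the median size of change over all kept genes.

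Over the 10 members the median log2 change was -0.17, beside 0.06 over all kept genes, and with equal FPKM sums it was 0.0045, beside 0.21. The 1613 genes with a mean of at least 20 FPKM had a median of -0.01. A higher value with shKIAA1429 was found for 4 of the 10 members and for 57.3% of all kept genes. Changes no larger than 0.5 up or down were seen in 6 members (60.0%) and in 84.0% of all kept genes. The members lay on both sides of zero, with EGR1, FOS and JUND lowest and FOSL1 and ATF3 highest.

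The order of levels differed between the libraries. With shNC it ran from JUND through FOSL1, IER3, EGR1, FOSL2, JUN, JUNB, IER2 and ATF3 to FOS. With shKIAA1429, FOSL1 stood above JUND, EGR1 had gone from position 4 to position 7, behind JUNB, and ATF3 stood above IER2. IER3 held position 3 and FOS position 10 in both. The ratio of FOSL1 to JUND was 0.905 with shNC and 1.79 with shKIAA1429. Which neighbours in these orders differ beyond the spread of samples cannot be said from 1 library each.

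**Figure D4:**
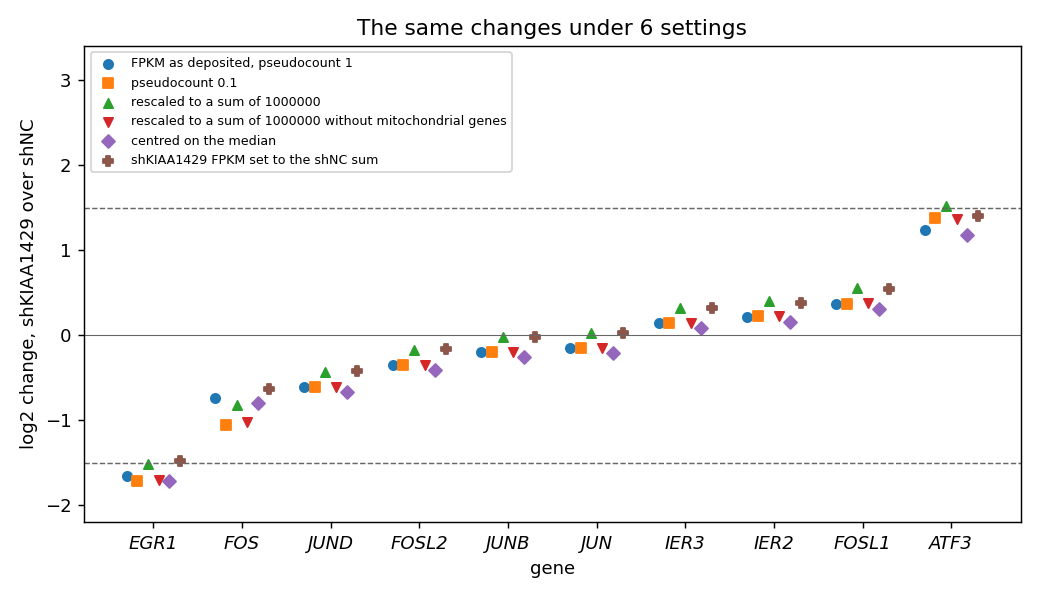
Log2 change of each of the 10 genes (vertical axis) under 6 settings of pseudocount and scaling, with genes ordered by the change at the main setting and dashed lines at 1.5 and -1.5. EGR1 (-1.72 to -1.49) is past -1.5 in 5 of them and short of it with equal FPKM sums, ATF3 passes 1.5 in 1 of them, and JUN lies below 0 in 4 of them and at 0.03 in the other 2.

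For the lists below, the values over all kept genes are a median of 0.06, or 0.21 with equal FPKM sums, and 57.3% higher with shKIAA1429. The SRF, ELK and CREB factors and the kinases of the ERK, JNK and p38 cascades that were kept all had log2 changes within 1. SRF was at 14.6 FPKM with shNC and 13.9 FPKM with shKIAA1429, and the ratio of EGR1 to SRF was 3.58 and 1.14. Of 9 SRF, ELK, MRTF and CREB factors, 0 passed 1.5 and 0 passed 1, with a median of 0.14 and a range from -0.20 for ELK3 to 0.73 for ATF1. In the ERK cascade 16 of 17 genes were kept, 0 passed 1, and the median was -0.03 (0.12 with equal FPKM sums), from -0.37 for MAP2K2 to 0.58 for NRAS. In the JNK and p38 cascades 10 of 13 genes were kept, 0 passed 1, and the median was -0.10 (0.06 with equal FPKM sums), from -0.46 for MAPKAPK2 to 0.42 for MAP2K7. These are mRNA levels and say nothing of kinase activity.

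Among the EGF receptor family, its ligands and its adaptors, 12 of 14 genes were kept and 1 was higher past 1.5, beside 0.392% of all kept genes. That gene, GRB2, the adaptor that links receptors to RAS, was at 3.95 FPKM with shNC and 15.6 FPKM with shKIAA1429, a log2 change of 1.75. EGFR was at 90.7 FPKM with shNC and 101 FPKM with shKIAA1429. AREG, which encodes the EGFR ligand amphiregulin, was at 8.00 and 19.2 FPKM, a log2 change of 1.17, although its reads could be divided with a near-identical copy annotated in GRCh37. ERBB3 had the lowest change of this list, -0.63.

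Of 36 other immediate early genes 30 were kept, and their median log2 change was 0.10, with 21 higher (70.0%, beside 57.3% of all kept genes) and 9 lower. MYC, the proliferation factor, was the 1 gene lower past 1.5, beside 0.252% of all kept genes, at 28.5 FPKM with shNC and 4.53 FPKM with shKIAA1429, a log2 change of -2.42. BTG2, an antiproliferative gene, had the highest change, 1.16, from 25.1 to 57.2 FPKM. For contrast, 3 genes of this list with close values in the libraries were picked after their values were seen. DUSP1, an ERK and JNK phosphatase gene, was at 74.1 and 75.1 FPKM, MCL1 at 48.7 and 49.6 FPKM, and CCN1 (listed as CYR61) at 286 FPKM in both.

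Genes that mark ERK output had a median log2 change of 0.27 over the 14 of 18 that were kept, with 9 higher and 5 lower. CCND1, which encodes cyclin D1, was at 42.4 FPKM with shNC and 96.6 FPKM with shKIAA1429, a log2 change of 1.17. DUSP6, the ERK phosphatase gene, was at 9.94 and 15.4 FPKM. PHLDA1 had the lowest change, -0.30.

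The list of AP-1 targets known from textbooks had a median log2 change of 0.37 over 18 kept genes of 23, with 13 higher (72.2%, beside 57.3% of all kept genes), 0 past 1.5 and 3 higher past 1, beside 1.62% of all kept genes. Those 3 were AREG, CCND1 and PLAU, the gene of the protease urokinase, which was at 64.0 FPKM with shNC and 137 FPKM with shKIAA1429. VIM, the gene of vimentin, had the lowest change of this list, -0.69, from 368 to 228 FPKM. For EGR1 targets the median was -0.06 (0.11 with equal FPKM sums) over 13 kept genes of 18, with 6 higher and 7 lower. PDGFA and PDGFB, growth factor genes of this list, had log2 changes of -0.54 and -0.55, and FN1, the gene of fibronectin, had a change of 1.04, from 146 to 301 FPKM. Both lists hold genes that many other factors also control, and TGFB1 and VEGFA stand in both. Several more genes, among them CCND1, AREG, NAB2, MAFF and ZFP36, each stand in 2 of the lists described here, so the lists are not independent.

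**Figure D5:**
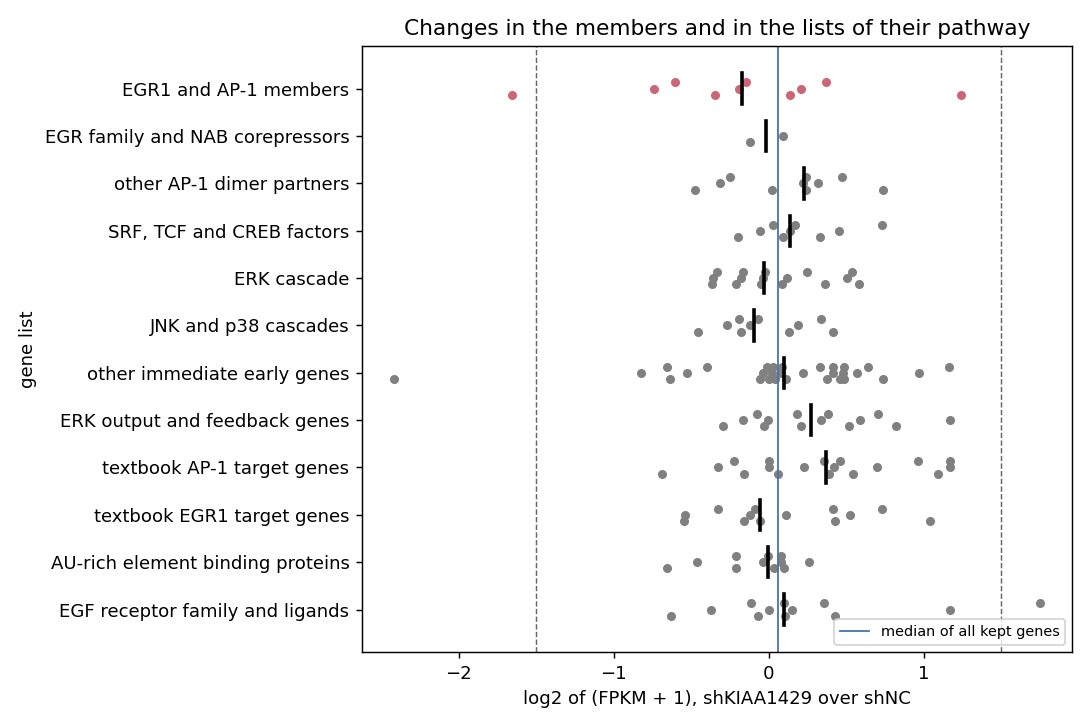
Log2 change (horizontal axis) of each kept gene in the members and in 11 lists of their pathway, with the list median as a black bar, the median of all kept genes as a blue line and dashed lines at 1.5 and -1.5. Past the limits lie EGR1 (-1.66), MYC (-2.42) and GRB2 (1.75), and the list medians lie between -0.17 and 0.37. With equal FPKM sums the negative medians are positive, and that of all kept genes is 0.21.

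Other AP-1 pairing partners had a median log2 change of 0.23 over 10 kept genes of 13, with 0 past 1. MAFF, a small MAF gene, was highest at 0.73 and JDP2, a JUN dimerization partner that represses AP-1, was lowest at -0.48. Proteins that bind AU-rich elements, through which many immediate early mRNAs are degraded, had a median of -0.01 (0.16 with equal FPKM sums) over 11 kept genes of 12. ZFP36, itself an immediate early gene, was lowest of these at -0.66 (23.7 and 14.7 FPKM, shNC first), and TIAL1 was highest at 0.26.

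The members lie on chromosomes 1, 2, 5, 6, 11, 14 and 19. The longest of them, ATF3, spans 55444 bases, EGR1 spans 3826 bases and IER3 spans 1356 bases. No member overlaps another listed gene on its own strand, and JUNB overlaps HOOK2 on the other strand. GENCODE 29 also places antisense genes at FOSL2, IER2 and IER3, and whether the authors counted by strand is not given, so some of their reads may not be told apart. In GENCODE 29 the longest coding transcripts of JUN, JUNB, JUND, IER2 and IER3 have 1 exon, that of EGR1 has 2, and those of FOS, FOSL1, FOSL2 and ATF3 have 4.

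Motifs for decay and for m6A were counted in the longest coding transcript of each gene. The AU-rich pentamer ATTTA was found in the 3′ untranslated region of 9 of the 10 members, all but IER2, and of 72.6% of 11788 listed genes with such a region. It occurred 5 times in FOS, 6 times in IER3, 9 times in FOSL2 and 1 time each in EGR1, FOSL1 and JUND. The region of FOSL2 is long, at 4864 bases. Per kb of this region the count was 6.20 for FOS, 6.64 for IER3 and 1.85 for FOSL2. The median over all listed genes with such a region was 1.69 per kb. GGACT, a common m6A consensus, was found in 8 of the 10 members and in 91.8% of 11887 listed genes with a matched transcript. EGR1 and FOSL1 were the members with 0 matches. Other m6A consensus sequences were not searched for, so 0 matches does not show that a transcript lacks them. IER3, with 4 matches in a transcript of 1350 bases, had the densest, at 2.96 per kb, beside a median of 0.925 over all matched genes. A pentamer is no measure of methylation, and m6A itself was not measured in these files.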

How the data were processed

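Poly(A) RNA of ACHN cells was sequenced in 1 library with shKIAA1429 and 1 with shNC, grouped by the labels. The authors deposited FPKM per gene for 12014 protein-coding genes, and the lowest of their higher values was 0.500 FPKM. The submitters' processing notes name cutadapt 1.9, HISAT2 2.0.4, StringTie 1.3.4d, DESeq2 and edgeR. The genome build is not given in the sources used here, and the gene identifiers have the form of GENCODE genes mapped to GRCh37. FPKM keeps no read count, so depth and counting error are unknown.

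The log2 of (FPKM + 1) ratios was computed for genes with a mean of at least 1 FPKM. For 7 repeated symbols, none a member, the entry of highest mean stood for the symbol. With 1 library per group no test was run. The genes named are the 10 members, KIAA1429, ACTB, GAPDH, list genes with a change of at least 1, the highest and lowest of each list, and the 5 nearest to EGR1, and a few others given after their values were seen. The members and lists were chosen with earlier results of these data known. Alternatives were a pseudocount of 0.1, rescaling to a sum of 1000000 with or without mitochondrial genes, centring, no filter, a mean of at least 5 FPKM and a limit of 1, and, added after seeing the data, the shKIAA1429 values multiplied to the shNC sum. Both rescalings to 1000000 also raise all values against the pseudocount of 1. The steps were tested on simulated data with an assumed noise and planted changes larger than that of any member. That test says nothing of changes as small as those of the members. Promoters are RefSeq windows, and transcripts are those of GENCODE 29, matched by Ensembl identifier. Python 3.11.15, NumPy 2.4.6, pandas 2.3.3 and matplotlib 3.10.9 were used.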

Additional observations from a re-analysis of the deposited data

How the results depend on the processing

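Among 50 values of single members under a pseudocount of 0.1, the 3 rescalings or centring, 46 kept their direction and their side of 1.5. Multiplying the shKIAA1429 values to the shNC sum, an alternative chosen after seeing the data, put EGR1 at -1.49, which left 0 lower members, and JUN at 0.029. Rescaling to a sum of 1000000, which also makes the pseudocount of 1 small against the values, put JUN at 0.030 and ATF3 at 1.52, so that 1 member was counted as higher. EGR1 was the 1 lower member in the other 7 alternatives, and at a limit of 1 there was 1 higher member.

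The medians of the members and of the EGR and NAB, ERK cascade, JNK and p38, EGR1 target and AU-rich element lists, negative at the main setting, were 0.0045, 0.145, 0.12, 0.055, 0.11 and 0.16 with the shNC sum and 0.0046, 0.16, 0.14, 0.063, 0.12 and 0.17 at a sum of 1000000. The median of all kept genes was 0.21 and 0.24 in these settings, so the members and these lists lay below it in both. With a mean of at least 5 FPKM, which leaves out FOS and all markers of other cells, the ERK cascade median was 0.083, the EGR1 target median 0.11 and the AU-rich element median 0.013, and without a filter the last was also 0.013.

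Against 42 higher and 27 lower genes among all kept genes, there were 114 and 60 with a pseudocount of 0.1, 60 and 22 with the shNC sum, 135 and 32 at a sum of 1000000, 109 and 57 at that sum without mitochondrial genes, and 174 and 96 at a limit of 1. A mean of at least 5 FPKM left 24 higher genes, with 6039 genes counted. No paired analysis was possible because each arm was sequenced once. Depth is unknown, which limits the low values of FOS most.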

Other observations

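Several members have a close neighbour among the listed genes, and these neighbours were not part of any comparison above. They were chosen for their distance alone. CCDC85B ends 414 bases from the end of FOSL1 on the other strand, and was at 19.8 FPKM with shNC and 5.68 FPKM with shKIAA1429, a log2 change of -1.64, while FOSL1 was at 0.37. FLOT1, 466 bases from IER3 on the same strand, was at 32.1 and 51.3 FPKM, a log2 change of 0.66, while IER3 was at 0.14. STX10, 32 bases from IER2 on the other strand, was at 13.5 and 9.73 FPKM, and HOOK2, which overlaps JUNB on the other strand, was at 1.53 and 1.60 FPKM. Whether the authors' counting used the strand is not given in the sources used here, so reads of JUNB and HOOK2 may not be fully separated.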
